A study of Mus musculus with 12 samples.

Results

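Interferon-stimulated genes were examined in 3 mouse cell lines for which no interferon or other treatment was described: Isg15, Usp18, Ifit1, Ifit2, Ifit3, Rsad2, Oasl2, Mx1 and Mx2. The genes were listed by name, and the transcript accession in each probe's name was matched to a mouse gene symbol. Of the 9 genes listed, 7 were matched, each with 3 probes, among 25128 genes and unnamed transcripts on the array. Mx1 and Mx2 had no match and are not analysed here. Each line, labelled AtT20, BV2 or N18, was represented by 4 plates, with 1 NimbleGen array per plate. The plates were grown to confluence in the same serum-containing medium and harvested separately. For BV2 the paper adds that the culture conditions favoured a resting rather than an activated state. BV2 is an immortalised microglial line, N18 is a neuroblastoma line and AtT20 is a pituitary corticotroph tumour line. A single stock of each line stood for its cell type, so the p-values below measure the spread between plates of that stock.

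Type I interferons, which include interferon beta and the interferon alphas, are secreted when sensors in a cell meet foreign nucleic acid. They bind the receptor chains IFNAR1 and IFNAR2, whose kinases JAK1 and TYK2 pass the signal to a complex that holds STAT2 and IRF9. The complex binds a DNA element, the interferon-stimulated response element, beside many antiviral genes. Microglia are the resident macrophages of the brain, and interferon-stimulated genes are well known from them in infection and injury.

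The promoters of these genes are shown first, since the response element is a feature that the list of genes did not use. RefSeq promoter windows of the GRCm38.p6 build, 250 bases before and 50 bases after the annotated start, were held for 6 of the 7 matched genes. The core of the response element, spelled GAAA, any 2 bases and GAAA again and searched on both strands, was in the windows of 4 of these 6 genes. It was in the windows of 3.99% of all 27025 genes with a window, and in 3.44% of all 32851 windows. It lay in the windows of Isg15, Ifit1, Ifit3 and Rsad2, and not in those of Ifit2 or Oasl2. The 250 bases before the start of 3 of the genes are printed below from 5′ to 3′ on the strand of the gene, with each match in capitals. The Isg15 bases lie at chr4:156200819-156201068 on the minus strand, the Ifit1 bases at chr19:34640639-34640888 on the plus strand, and the Rsad2 bases at chr12:26456453-26456702 on the minus strand.
Isg15: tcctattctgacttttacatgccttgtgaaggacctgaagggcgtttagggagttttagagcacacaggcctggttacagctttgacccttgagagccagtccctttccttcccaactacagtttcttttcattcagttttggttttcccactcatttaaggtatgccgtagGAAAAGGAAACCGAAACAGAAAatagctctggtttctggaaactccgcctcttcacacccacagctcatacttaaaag
Ifit1: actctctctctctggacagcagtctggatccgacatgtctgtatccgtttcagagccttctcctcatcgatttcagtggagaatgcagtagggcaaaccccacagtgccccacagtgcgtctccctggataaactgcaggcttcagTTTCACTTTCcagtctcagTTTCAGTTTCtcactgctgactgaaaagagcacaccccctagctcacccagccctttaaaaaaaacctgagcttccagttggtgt
Rsad2: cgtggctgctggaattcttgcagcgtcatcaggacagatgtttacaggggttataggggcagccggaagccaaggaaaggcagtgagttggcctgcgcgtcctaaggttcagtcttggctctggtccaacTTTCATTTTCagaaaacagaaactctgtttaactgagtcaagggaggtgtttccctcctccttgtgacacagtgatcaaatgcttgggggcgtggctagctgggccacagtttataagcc

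In Isg15 the capitals are 3 overlapping matches, which ran from base -78 to base -57, counted from the start. In Ifit1 they are 2 matches on the opposite strand, at -104 to -95 and -85 to -76. In Rsad2 the single match, also on the opposite strand, was at -120 to -111. Ifit3 had 2 matches on the opposite strand, TTTCACTTTC at -156 to -147 and TTTCAGTTTC at -122 to -113, and the same letters made up the pair in Ifit1. Ifit1, Ifit2 and Ifit3 are paralogs that lie beside each other on chromosome 19, so they are not independent examples of the motif. A second motif, the gamma-activated site core TTCNNNGAA, was in 1 of the 6 genes (Ifit2) and in 9.55% of all genes with a window. A match is a description of the letters and does not show that a factor binds there. Bases outside the windows were not searched, so the lack of a match in Ifit2 and Oasl2 holds for their windows only.

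**Figure D1:**
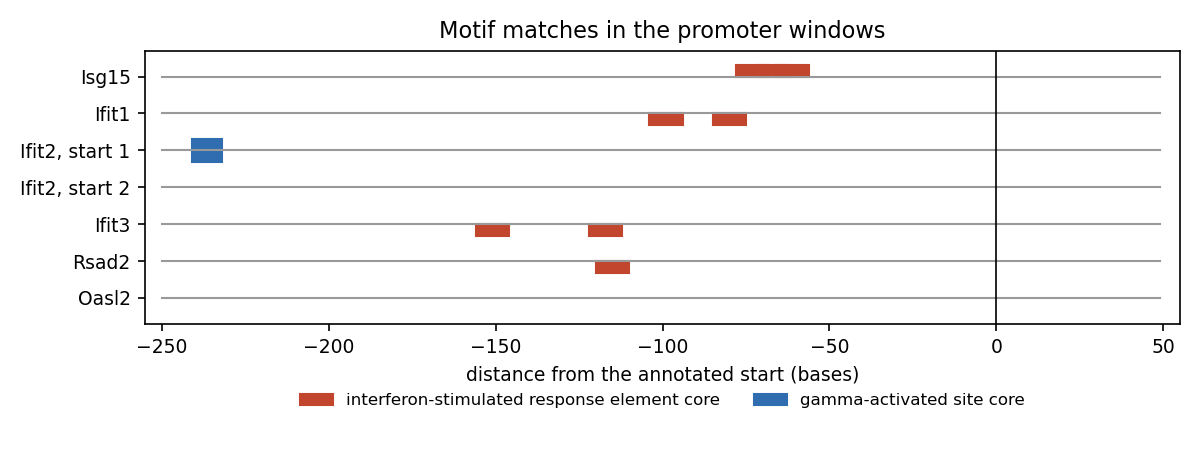
Motif matches in the promoter windows of 6 interferon-stimulated genes, by distance in bases from the annotated start (vertical line); boxes above a window's line are matches on the strand of the gene, boxes below it are matches on the opposite strand, and a box across it is a palindrome that matches on both. All matches to the response element core lay between bases -156 and -57, and Ifit2 (with 2 annotated starts) and Oasl2 had none.

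Levels are given here on a log2 scale relative to 10 seminal proteins, secreted proteins of the male genital tract that served as genes without expression, measured on the same plate. A gene was called detected when its mean level over the 4 plates was above a detection threshold. That threshold was 2 SD of the seminal proteins on a plate, averaged for the line: 0.37 in AtT20, 0.56 in BV2 and 0.74 in N18. By this rule 7 of 7 interferon-stimulated genes were detected in BV2 (53.3% of all genes), 2 of 7 in N18 (55.4% of all genes) and 2 of 7 in the plates labelled AtT20 (35% of all genes). In BV2 each of the 7 was above the threshold of each of the 4 plates. The genes detected in N18 were Isg15 and Usp18, and those in the plates labelled AtT20 were Isg15 and Oasl2, by margins that other settings removed. Since each array measured RNA of a whole plate, fewer cells with a transcript and less of it per cell cannot be told apart.

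The labels were checked against marker genes. In BV2, 7 of 9 microglial markers were detected, with a level of 4.70 for the highest, while Aif1 and Cx3cr1 were not. In N18, 10 of 10 neuroblastoma markers were detected. In the plates labelled AtT20 only 2 of 8 corticotroph markers were detected, and Pomc, the hormone precursor that defines this line, was at 0.29 and below the threshold. Corticotroph markers were detected for 5 of 8 in N18 and 2 of 8 in BV2, and neuroblastoma markers for 5 of 10 in BV2 and in the plates labelled AtT20. Microglial markers were detected for 3 of 9 in N18 (level 1.52 or less) and for 1 of 9 in the plates labelled AtT20. Log2 intensities were also compressed on the plates labelled AtT20, with an interquartile range of 0.38 to 0.78 against 1.28 to 1.73 in BV2 and 1.91 to 2.21 in N18, and their part in the results was not tested. The comparisons below therefore turn on BV2 and N18, and those with the plates labelled AtT20 are given under other scalings too. Which arrays shared a slide was not given in the sources used here, so slide and line cannot be told apart.

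Isg15 encodes a ubiquitin-like protein that is attached to other proteins in interferon-treated cells, and Usp18 encodes the protease that removes it and that also restrains the interferon receptor. Isg15 levels on the 4 BV2 plates were 4.40, 3.57, 3.52 and 4.23, against 1.30, 1.76, 1.49 and 1.34 in N18 and 0.36, 0.43, 0.37 and 0.44 in AtT20. Usp18 levels were 4.92, 4.09, 4.17 and 5.00 in BV2, 1.50, 1.47, 1.23 and 1.35 in N18, and 0.42, 0.22, -0.06 and -0.02 in AtT20. For each gene all BV2 plates were high, all N18 plates were intermediate, all AtT20 plates were low, and no line overlapped another on this scale. The share of all genes with such an order was not taken. On this scale the test described below called 15255 of all genes higher in N18 than in AtT20 and 4094 lower. The order of N18 and AtT20 was not kept on other scales. In the log2 intensities as deposited, mean Isg15 was 11.35 in AtT20 and 11.04 in N18.

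The IFIT proteins bind viral RNA and block its translation. Ifit1 levels were 5.14, 4.43, 4.41 and 5.22 in BV2, 0.25, 0.38, 0.35 and 0.22 in N18, and 0.10, 0.07, -0.02 and -0.04 in AtT20. Ifit2 levels were 4.52, 3.70, 3.86 and 4.56 in BV2, 0.26, 0.62, 0.47 and 0.38 in N18, and -0.09, 0.25, 0.24 and 0.00 in AtT20. Ifit3 levels were 4.94, 4.20, 4.12 and 5.05 in BV2, 0.56, 0.54, 0.67 and 0.66 in N18, and 0.00, -0.16, -0.02 and 0.08 in AtT20. All 3 were far above the threshold on each BV2 plate, with means below it in the other two lines. The IFIT genes resemble each other in sequence, and the probe sequences were not used here, so the share of each paralog in these signals is uncertain.

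Rsad2 encodes viperin, an enzyme that makes a chain-terminating nucleotide. Its levels were 4.67, 3.84, 3.96 and 4.84 in BV2, -0.11, 0.07, 0.09 and -0.17 in N18, and 0.08, 0.38, 0.09 and 0.13 in AtT20. Only the BV2 plates were high. Oasl2 belongs to the oligoadenylate synthetase family, whose members respond to double-stranded RNA. Oasl2 levels were 2.18, 0.90, 1.37 and 2.19 in BV2, 0.63, 0.42, 0.55 and 0.81 in N18, and 0.28, 0.87, 0.32 and 0.55 in AtT20. Here the lowest BV2 plate lay just above the highest N18 and AtT20 plates on this scale.

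**Figure D2:**
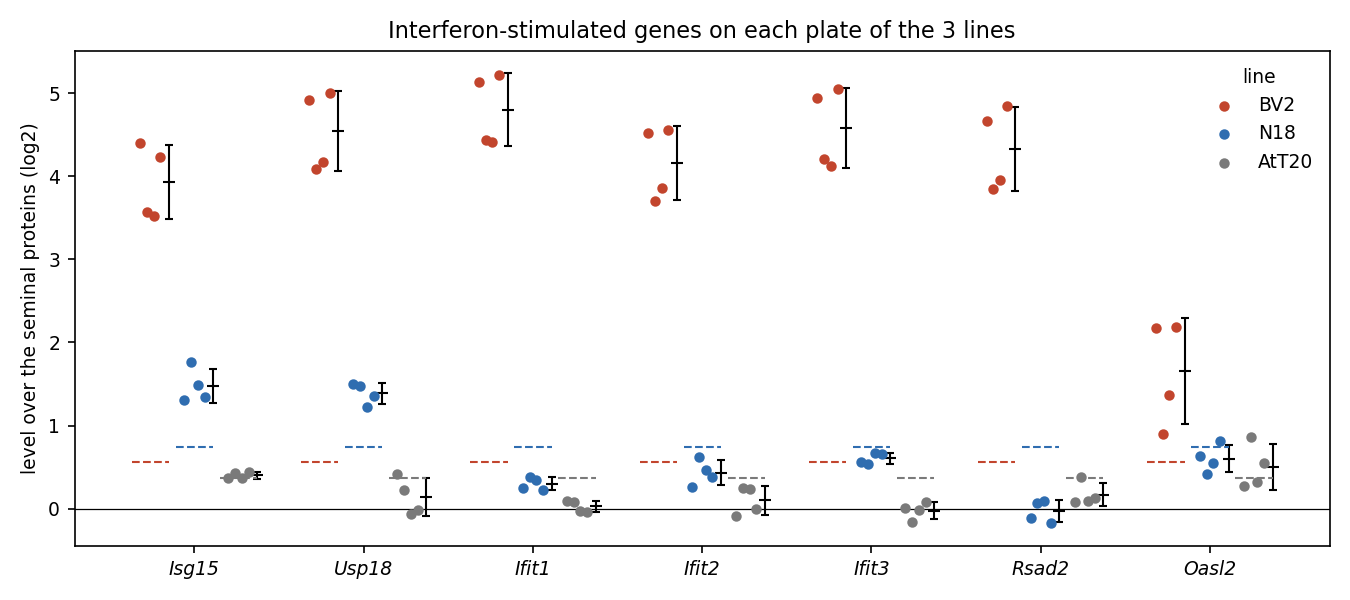
Level of 7 interferon-stimulated genes over the seminal proteins (log2, vertical axis) on each of 4 plates of BV2, N18 and AtT20 (points), with the mean and SD beside them and the detection threshold of each line as a dashed bar. The BV2 plates sit between 3.52 and 5.22 for 6 of the genes and between 0.90 and 2.19 for Oasl2, and N18 is above its threshold for Isg15 and Usp18.

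Within BV2 the order of the plates depended on the scaling. As levels over the seminal proteins, plate 2 was lowest for 4 of the 7 genes and plate 3 for the other 3, while plate 4 was highest for 6. In the intensities as deposited, plate 1 was highest and plate 2 lowest for all 7. The SD over BV2 plates was 0.44 to 0.64 for the 7 genes as levels over the seminal proteins, and 0.09 to 0.38 after quantile normalization, which gives all 12 arrays the same distribution of intensities. In N18 the SD was 0.07 to 0.21 as levels.

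Lines were compared after quantile normalization of the 12 arrays with limma, and p-values were adjusted by the Benjamini-Hochberg method over all 25128 genes and transcripts. The 7 interferon-stimulated genes were all higher in BV2 than in N18 (adjusted p under 0.05), where 21.9% of all genes were. Their median difference was 3.78 on the log2 scale, and that of all genes was 0.06. Without normalization the median of all genes was -0.15, and relative to the seminal proteins it was -0.18; the split of all genes moved from 5495 higher and 4775 lower to 1905 and 7714, and to 3296 and 9754, while the 7 genes were higher under each. The shares of all genes called also depend on the plates labelled AtT20, which share the variance of the fit. With only the 8 arrays of the pair, 9000 of all genes were called higher in BV2 and 6509 lower. Ifit1 showed the widest gap, with quantile-normalized log2 means of 14.74 ± 0.09 in BV2 and 10.17 ± 0.06 in N18 (SD, n = 4). Its difference of 4.58 (SE 0.11, limma adjusted p = 2.35e-14) was the 18th largest upward difference among all genes. Rsad2 differed by 4.27 (SE 0.13, limma adjusted p = 1.70e-13) and Ifit3 by 4.14 (SE 0.13, limma adjusted p = 2.65e-13). Because Ifit1, Ifit2, Ifit3 and Rsad2 were below the threshold in N18, each has only a lower bound there. Set against the N18 threshold, and taking the smallest value over 3 scalings, Ifit1 was at least 16.6-fold, Ifit3 at least 14.2-fold, Rsad2 at least 11.9-fold and Ifit2 at least 10.6-fold higher in BV2.

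Isg15 and Usp18 were detected in both lines, so their differences are measured ones. Usp18 was 3.60 higher in BV2 (SE 0.18, limma adjusted p = 6.90e-11) and Isg15 was 2.87 higher (SE 0.13, limma adjusted p = 3.24e-11). Oasl2 differed least, by 1.17 (SE 0.17, limma adjusted p = 3.01e-05), and was at least 1.8-fold higher in BV2. A difference of 3 or more log2 units upward was seen for 0.474% of all genes, and 5 of the 7 interferon-stimulated genes were among them. Each BV2 plate was above each N18 plate for 7 of 7, as it was for 31.9% of all genes.

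Against the plates labelled AtT20, 6 of the 7 genes were higher in BV2 (26.6% of all genes were higher and 47% lower). Differences for these 6 were 4.28 for Ifit1, 4.17 for Ifit3, 3.77 for Usp18, 3.44 for Rsad2, 3.36 for Ifit2 and 2.53 for Isg15, each with a limma adjusted p of 3.51e-10 or less. The choice of scaling shifted all genes in this comparison: the median difference of all genes was -0.23 after quantile normalization, -1.08 without normalization and 0.28 relative to the seminal proteins. The 6 genes stayed higher under each of these scalings. As lower bounds over the same scalings, Ifit1 was at least 8.4-fold, Ifit3 at least 7.2-fold, Usp18 at least 7.0-fold, Rsad2 at least 6.0-fold and Ifit2 at least 5.3-fold higher in BV2. Oasl2 had no settled direction, with 0.11 after quantile normalization (limma adjusted p = 0.579), -0.21 without normalization and 1.16 relative to the seminal proteins (limma adjusted p = 0.000112). For 6 of the 7 genes, all but Oasl2, each BV2 plate was above all 8 other plates, against 10.1% of all genes.

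The remaining pair, N18 and the plates labelled AtT20, gave directions that changed with the scaling. Of the 7 genes, 4 passed the test after quantile normalization, as did 76.4% of all genes, and only Isg15, Usp18 and Oasl2 were detected in either line. Isg15 was lower in N18 by quantile normalization, at -0.34 (limma adjusted p = 0.0282), and higher relative to the seminal proteins, at 1.07 (limma adjusted p = 0.000173). Usp18 differed by 0.17 (limma adjusted p = 0.386) and Oasl2 by -1.06 (limma adjusted p = 2.64e-05) after quantile normalization, while relative to the seminal proteins Usp18 differed by 1.25 (limma adjusted p = 5.80e-05) and Oasl2 by 0.10. The median of all genes was -0.25 after quantile normalization and 0.54 relative to the seminal proteins. Of all genes, 27.8% were called higher and 48.6% lower in N18 after quantile normalization.

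The 3 probes of each gene were also fitted singly, with the same test over all 72000 probes. In BV2 all 21 probes were above the gene-level threshold, against 8 of 21 in N18 and 4 of 21 in the plates labelled AtT20. That threshold was set on genes with 3 probes averaged, so it is not a detection rule for single probes. The share of all probes above it was not taken. Of the 21 probes, 20 were higher in BV2 than in N18 (13.2% of all probes were), with differences of 0.30 to 4.86 over all 21. Against the plates labelled AtT20, 19 were higher (27.7% of all probes) and 1 was lower (34.8% of all probes), with a range of -1.07 to 5.01. Between N18 and the plates labelled AtT20, 2 were higher in N18 (29.8% of all probes) and 8 lower (36% of all probes). Relative to the seminal proteins 9 were higher and 2 lower. On that scale 15255 of all genes were called higher in N18 and 4094 lower, and shares of all probes were not taken. The exceptions were probes of Oasl2, which disagreed. Its first probe had mean levels of 1.43 in BV2, 1.50 in N18 and 1.13 in AtT20. It was the probe called lower in BV2 than in AtT20, and relative to the seminal proteins it did not pass the test there (0.30, limma adjusted p = 0.323). The other two had 2.21 and 1.08 in BV2, -0.12 and -0.39 in N18, and -0.12 and 0.15 in AtT20. By these probes, Oasl2 was 2.11 and 1.27 higher in BV2 than in N18 (limma adjusted p = 2.53e-07 and 0.00145), and by the first probe 0.30 (limma adjusted p = 0.303). The detection of Oasl2 in the plates labelled AtT20 rested on the first probe.

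**Figure D3:**
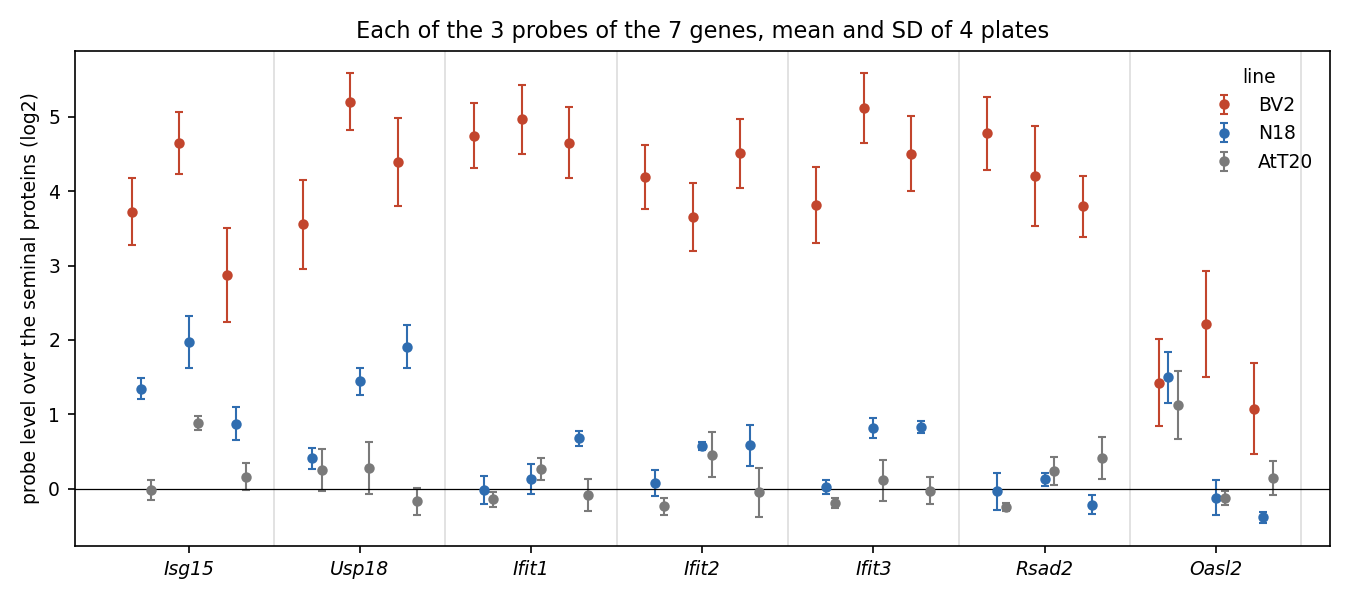
Level of each of the 3 probes of 7 interferon-stimulated genes over the seminal proteins (log2, vertical axis), as the mean and SD of 4 plates of BV2, N18 and AtT20. All 21 probes are high in BV2 relative to the other lines except the first Oasl2 probe, at 1.43 in BV2 and 1.50 in N18.

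The rest of the interferon pathway was read from lists of 59 measured pathway genes and 52 other measured interferon-stimulated genes. Between BV2 and N18, 74 of these 111 genes were higher in BV2 (21.9% of all genes were), 3 were lower and 34 did not pass the test, with a median difference of 0.70 against 0.06 for all genes. Of the other interferon-stimulated genes, 44 of 52 were higher and 2 lower (median 1.13), and of the pathway genes 30 of 59 were higher and 1 lower (median 0.33). Without normalization 59 of the 111 were higher and 8 lower, where 1905 of all genes were higher and 7714 lower. Relative to the seminal proteins the split of the list was 65 and 8, and that of all genes 3296 and 9754. In BV2, 46 of the 52 other interferon-stimulated genes were detected, compared with 25 in N18 and 10 in the plates labelled AtT20. These are 88.5%, 48.1% and 19.2%, beside 53.3%, 55.4% and 35% of all genes. The list counts between BV2 and N18 that follow are to be read against the 21.9% of all genes called higher in BV2 and the 19% called lower. Where a named gene was below the threshold in N18, its difference is a fitted value against an undetected signal, and a lower bound is given as for Ifit1.

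The interferons themselves were near background. In BV2, 6 of 18 were detected, with levels of -0.63 to 1.02, and 5 of 18 in N18, shares of 33.3% and 27.8% that were under those of all genes. Ifnb1, interferon beta, was at 0.05 ± 0.05 in BV2 and -0.19 ± 0.02 in N18 (SD, n = 4), below the threshold of each. The test called 5 of 18 interferons (27.8%, near the 21.9% of all genes) higher in BV2 and none lower, and Ifnb1, Ifna11 and Ifnl2 were below the threshold in each. The detected ones were Ifna14, at a level of 0.81 in BV2, and Ifnl3, at 0.80, whose call was lost without normalization (limma adjusted p = 0.328). Interferon genes have near-identical copies, so which copy gave a signal is uncertain.

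Of 6 receptor chains, 4 were detected in BV2 and 5 in N18, and of 6 Jak and Stat signal genes, 6 in BV2 and 5 in N18. Ifnar1 was at 3.25 in BV2 and 3.77 in N18, and its difference did not pass the test (0.15, SE 0.12, limma adjusted p = 0.349). Ifnar2 was 1.85 higher in BV2 (SE 0.12, limma adjusted p = 2.49e-09). Il10rb, a chain of the receptors for lambda interferons and interleukin 10, was 1.13 higher, and its call was lost relative to the seminal proteins (limma adjusted p = 0.0646). Of 6 Jak and Stat signal genes, 5 were higher in BV2 and none lower. Irf9, the DNA-binding subunit of the complex, differed by 2.02, Jak2 by 1.36 and Stat2 by 1.02, and Jak1 did not pass the test (0.24, limma adjusted p = 0.129). Stat2 was at 3.08 in BV2 and 2.70 in N18, and its call was lost relative to the seminal proteins (limma adjusted p = 0.146). Of 6 inhibitors, 2 were higher in BV2 (33.3%, against 21.9% of all genes): Ptpn6, a phosphatase of blood cells that acts on Jak kinases, by 3.47, and Socs3, which blocks them, by 1.37. Socs1 was below the threshold in all 3 lines.

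**Figure D4:**
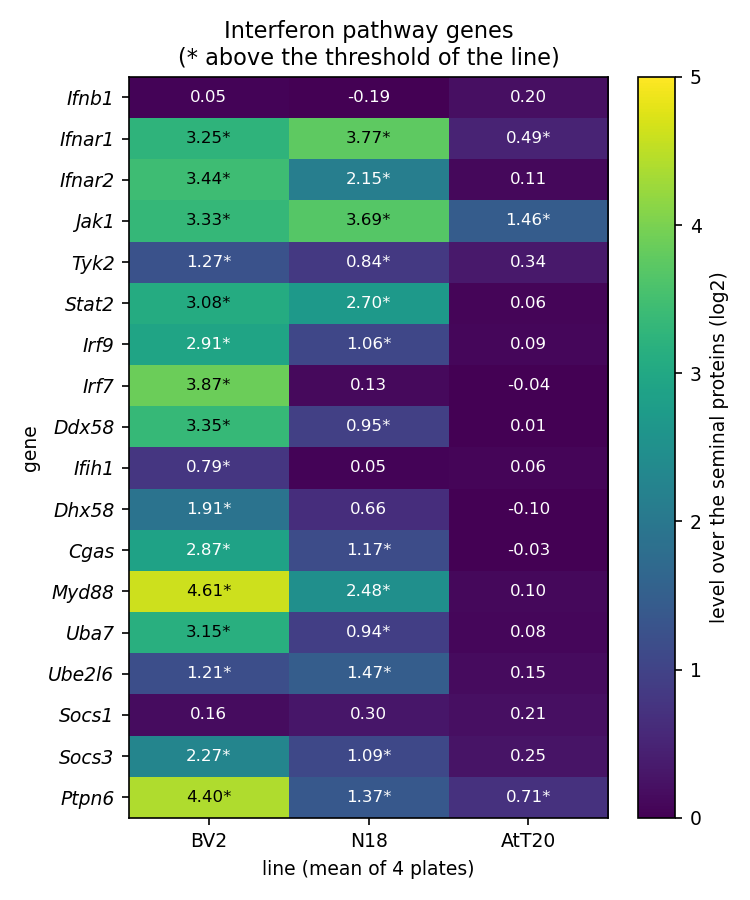
Mean level over the seminal proteins (log2, colour and number) of 18 interferon pathway genes in BV2, N18 and AtT20, 4 plates each; a star marks a level above the detection threshold of the line, and values are to be compared along a row. Ifnb1 is below the threshold in all 3 lines, Ifnar1, Ifnar2 and Jak1 are above it in BV2 and N18, and Irf7 is above it only in BV2.

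Among sensors of foreign nucleic acid and their adaptors, 10 of 13 were higher in BV2 than in N18 and none lower. Myd88, an adaptor of Toll-like receptors, differed by 2.90, Ddx58, which encodes the RNA sensor RIG-I, by 2.56, and Tlr7, a receptor for single-stranded RNA, by 2.07 (at least 2.0-fold). The related RNA sensor Dhx58 differed by 1.34 (at least 2.1-fold), and Ifih1 by 0.73. The BV2 level of Ifih1, 0.79, was just above the N18 threshold, and its lower bound was 0.05 on the log2 scale, near no difference. Of 8 kinases and factors that switch on interferon genes, 5 were higher and 1 lower. Irf7, the factor needed for most interferon alphas and itself induced by interferon, was at 3.87 ± 0.42 in BV2 and 0.13 ± 0.05 in N18 (SD, n = 4) and differed by 3.70 (limma adjusted p = 2.18e-13), at least 8.7-fold. Ikbke differed by 1.74 (at least 2.8-fold) and Irf5 by 1.57 (at least 2.5-fold). Tbk1, the kinase that activates IRF3, was 0.46 lower in BV2 (limma adjusted p = 0.00393). In the conjugation of Isg15, the activating enzyme Uba7 was 2.38 higher in BV2, and Ube2l6, the conjugating enzyme, did not pass the test (0.16, limma adjusted p = 0.523), with levels of 1.21 in BV2 and 1.47 in N18.

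Of 6 genes of the oligoadenylate synthetase and RNase L list, 5 were higher in BV2 and none lower. Oasl1, a close relative of Oasl2, differed by 4.19 (SE 0.13, limma adjusted p = 1.83e-13), Oas2 by 3.54 and Oas3 by 3.22 (at least 7.6-fold). Antiviral effectors were higher in BV2 for 25 of 30 and lower for 1. Those named for the largest differences were Ifi44 at 3.56, Rtp4 at 3.32 and Ifi44l at 2.97, as bounds at least 6.5-fold, 8.5-fold and 3.9-fold. The lower one was Lgals3bp, a secreted glycoprotein that binds galectin, which was at 4.16 in N18 and 1.96 in BV2 and differed by -1.60 (SE 0.16, limma adjusted p = 4.81e-07). Of 13 interferon-inducible GTPases, 11 were higher and 1 lower, with differences of 2.47 for Gvin1 (at least 3.5-fold), 2.12 for Gbp7 (at least 3.2-fold) and 2.05 for Irgm1. The lower one, Tgtp1, was below the threshold in each line, and its call was lost when any of 6 plates was left out. All 3 measured chemokines of the list were called higher. Cxcl10 and Ccl5, which attract T cells, differed by 3.98 and 2.78, as bounds at least 11.5-fold and 5.2-fold, and Cxcl9, which also does, was at 0.20 in BV2 and 0.04 in N18, below the threshold of each, with a call lost without normalization (limma adjusted p = 0.452).

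**Figure D5:**
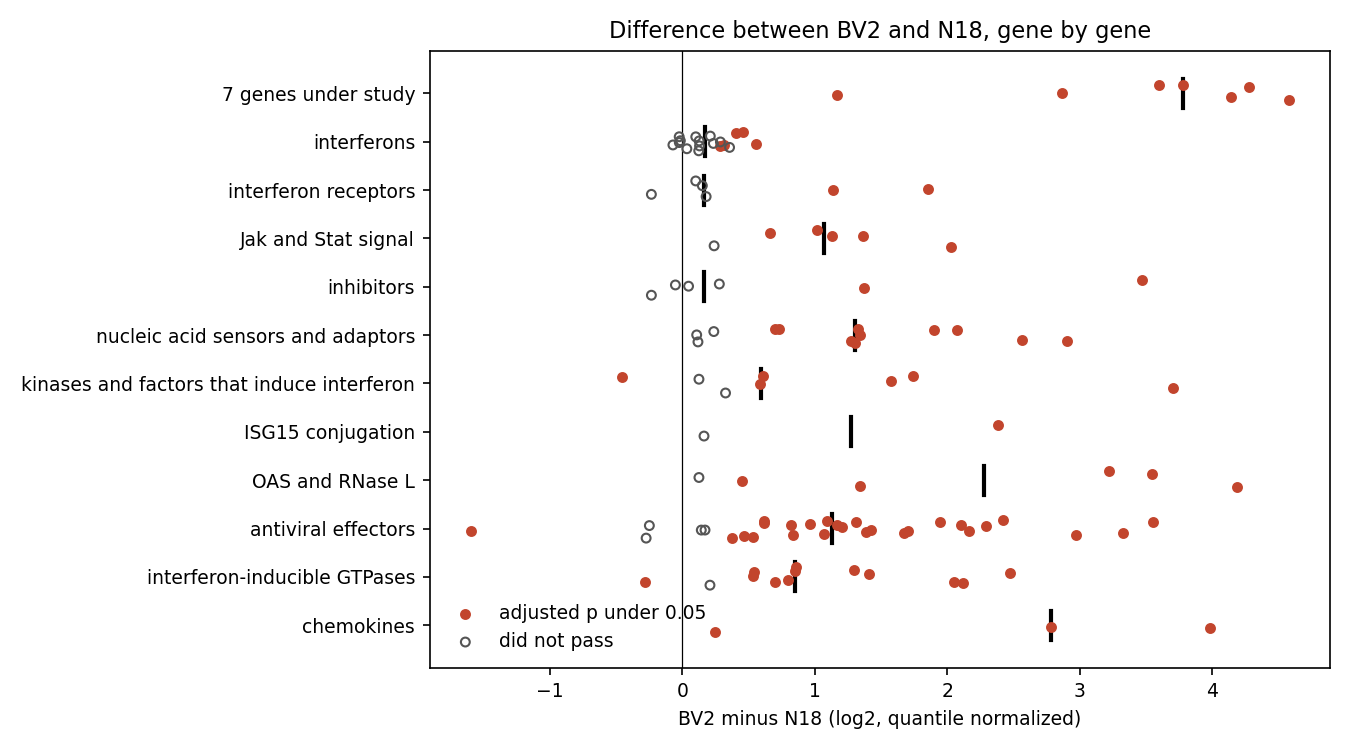
Difference between BV2 and N18 (log2 after quantile normalization, horizontal axis) for each gene of 12 lists; filled points passed the test (limma, adjusted p under 0.05), open points did not, and black bars are list medians. The 7 interferon-stimulated genes under study lie between 1.17 and 4.58, while the interferons lie between -0.07 and 0.56.

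Against the plates labelled AtT20, 65 of the 111 listed genes were higher in BV2 and 20 lower after quantile normalization, where 26.6% of all genes were higher and 47% lower. Without normalization the split of the list was 48 higher and 44 lower, and that of all genes 2940 and 18762. Relative to the seminal proteins it was 95 and 3 for the list, and 12668 and 4413 for all genes.

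Across the 12 arrays the genes followed a common pattern. Pairwise Pearson correlations among the 7 ranged from 0.47 to 0.99 with a median of 0.98, as a description, since the 12 arrays fall into 3 lines and their separation sets most of it. Within the 4 BV2 arrays they ranged from 0.35 to 0.99 with a median of 0.84. Correlations of other gene pairs within BV2 were not taken, and a plate effect that many genes share was not tested. The named genes whose quantile-normalized values over the 12 arrays were closest to the mean of the 7 were Anxa3 (Pearson r = 0.998), Cxcl2 (0.998) and Gvin1 (0.997). Closest to Ifit1 were Irf7 (0.999), Ptgs2 (0.998) and Plek (0.998). Of these 6, Gvin1 and Irf7 are on the interferon lists. Adgre1, a macrophage marker, was in 4th place for Ifit1 (0.998), so the pattern is that of high levels in BV2 and low levels in the other lines.

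Among all measured genes with a promoter window, 578 held the response element core and 13243 did not. Genes with the core were called higher in BV2 than in N18 for 28.7%, against 23.3% of those without, and the median differences were 0.12 and 0.05. Within the 111 listed genes the shares were 62.9% of 35 with the core and 64.3% of 56 without. Many of the 35 were interferon alpha genes, which are related copies near background and not independent examples of the motif. Of all 18 interferons measured, 27.8% were called higher in BV2. The share among listed genes with the core was not taken without the interferons, so these shares do not settle whether the core and the call are related. Counting listed genes with a window whether or not the array measured them, the core was present for 21 of 41 other interferon-stimulated genes. For pathway genes it was 15 of 53, and most of those 15 were the same interferon alpha genes. Differences between BV2 and N18 were 3.78 and 1.17 for Ifit2 and Oasl2, whose windows lacked the core, and 2.87 to 4.58 for Isg15, Ifit1, Ifit3 and Rsad2, whose windows held it.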

How the data were processed

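RNA of 12 plates (4 per line) was labelled with Cy3 and hybridised to mouse 60-mer NimbleGen arrays. The deposited values are log2 intensities that the authors made with GenePix and NimbleScan, 1 per probe, for 72000 probes; no normalization between arrays was found in them, and no count or depth applies, so the number of arrays limits the precision. The listed genes and gene lists were chosen with earlier results of these data known.

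Probes were grouped into 25631 targets by transcript accession, and 69.4% were matched to a symbol through a RefSeq table. A gene's level was the log2 of the mean of its linear probe intensities, with targets of a gene averaged. Detection followed the study's rule on the seminal proteins. Lines were compared in R 4.3.3 with limma 3.58.1 (lmFit, eBayes with trend, all 12 arrays, no covariate) after quantile normalization, with Benjamini-Hochberg adjustment over all genes. The fit was tested on simulated data. A bound against a line below its threshold used that threshold. Motifs were searched in RefSeq promoter windows, and Usp18 had no entry.

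Named genes were all 9 listed genes, the 3 largest differences in each direction between BV2 and N18 among called pathway and interferon-stimulated genes, up to 3 called genes per list, and the 3 genes most correlated with the mean of the 7 and with the gene of widest range; 1 gene that the rule names is not reported here. Ifnb1, Ifnar1, Stat2, Ifih1, Dhx58, Ifna11, Jak1, Tyk2, Cgas, Ube2l6 and Socs1 were named after their values were seen, as were the markers and Adgre1.

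Alternatives for the comparisons were leaving the arrays as deposited, scaling to the seminal proteins, normexp correction (offset 50), the mean of log2 probes, detected genes only, the 8 arrays of a pair, a replicate block and leaving out each plate. For detection they were the mean or median of probes, olfactory receptor genes as controls, 3 SD, all 4 plates, prior quantile normalization and leaving out each plate.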

Additional observations from a re-analysis of the deposited data

How the results depend on the processing

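All 7 genes remained higher in BV2 than in N18, and detected in BV2, under every alternative run and with any plate left out. Replicate numbers did not pair the plates: deviations of same-numbered plates correlated at -0.11 to 0.32 (median 0.01). With a replicate block 7 genes were higher in BV2 than in N18, 6 were higher than in AtT20, and 4 differed between N18 and AtT20, as without it; over all genes 10108 differed between BV2 and N18, against 10270. Tgtp1 lost its call (limma adjusted p = 0.0519).

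Calls that involve the plates labelled AtT20 depended on the processing, and the cause was not tested. Of the 7 genes, 4 differed between N18 and AtT20, 2 with the mean of log2 probes, and 2 to 6 with a plate left out; without N18 plate 1 or plate 4 it was 2. Detected in AtT20 were 2 genes, but 0 with the median of probes, with olfactory receptor genes as controls, at 3 SD or when all 4 plates had to pass, and 1 to 2 with a plate left out (1 without AtT20 plate 3). In N18 2 were detected, and 1 with the olfactory receptor genes, which lost Usp18. Of the 111 listed genes, 3 were lower in BV2 than in N18, against 8 without normalization, 8 relative to the seminal proteins and 7 with only the pair's arrays. Lower in BV2 than in AtT20 were 20, against 44, 3 and 9 without normalization, relative to the seminal proteins and among detected genes.

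Signs turned for Oasl2 between BV2 and AtT20 (-0.21 without normalization; -0.025 to 0.26 with a plate left out, below 0 without AtT20 plate 1 or BV2 plate 4), and between N18 and AtT20 for Isg15 (1.07) and Oasl2 (0.10) relative to the seminal proteins and Usp18 (-0.14) without normalization. Between BV2 and N18, without normalization and relative to the seminal proteins, they turned for Ifnar1 (-0.49 and -0.52), Jak1 (-0.33 and -0.36), Ube2l6 (-0.23 and -0.26) and Socs1 (-0.11 and -0.14), and for Socs1 with a plate left out (-0.00067 to 0.079, below 0 without BV2 plate 2). Among the differences of named genes under the alternatives, 1069 kept direction and call, 27 lost the call, 5 gained it and 15 turned. Without normalization the calls of Stat2, Tyk2, Ifnb1, Ifnl2, Ifnl3 and Cxcl9 between BV2 and N18 were lost.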
